A study of Arabidopsis thaliana with 6 samples.

Results

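The thalianol and marneral clusters are 2 groups of neighbouring genes on chromosome 5 of *Arabidopsis* that encode enzymes of root triterpene synthesis, and 7 of their genes were followed here by locus identifier among the 33560 genes of the deposited expression table. The thalianol cluster gave 4 members, *THAS1*, *THAH*, *THAD* and the acyltransferase gene AT5G47980, and the marneral cluster gave 3, *MRN1*, *MRO* and *CYP705A12*. Expression had been measured by RNA sequencing of root tips of about 2 mm from 5-day-old seedlings, with 3 libraries from the Columbia-0 wild type and 3 from *bron-2* plants, a line of the same background with a T-DNA in *BRON*, which encodes a C2H2-like transcription factor. All seedlings were grown untreated on 1× MS with 1% sucrose under 16 h of light and 8 h of dark, and each library came from root tips pooled over several plates. The mutant is a single insertion line with no second allele in these data. The question for these genes is whether their transcripts differ between the genotypes.

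Plants make triterpenes and sterols from the same precursor, oxidosqualene. Oxidosqualene cyclases fold it into different ring systems, and cytochrome P450 enzymes and BAHD acyltransferases, which transfer acyl groups, then modify the product. In *Arabidopsis* some of these enzymes are encoded side by side, an arrangement known as a metabolic gene cluster, and the thalianol and marneral clusters are known as root-expressed examples whose products are made mainly in roots. Such clusters are also known to carry the repressive histone mark H3K27me3 in tissues where they are silent.

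In the TAIR10.1 annotation the thalianol members span 32.8 kb, from 19428888 to 19461706 on chromosome 5. *THAS1* (AT5G48010, 19456837 to 19461706, plus strand) encodes thalianol synthase, the cyclase that starts the pathway. *THAH* (AT5G48000, also CYP708A2, 19444103 to 19447866, minus strand) encodes thalianol hydroxylase, and *THAD* (AT5G47990, also CYP705A5, 19434758 to 19436749, plus strand) encodes the desaturase of its product, thalian-diol. AT5G47980 (19428888 to 19430517, plus strand) encodes a BAHD acyltransferase. The marneral members span 34.7 kb, from 17023502 to 17058245, and the clusters lie 2371 kb apart. *MRN1* (AT5G42600, 17053453 to 17058245, plus strand) encodes marneral synthase, *MRO* (AT5G42590, also CYP71A16, 17031024 to 17033800, minus strand) encodes marneral oxidase, and *CYP705A12* (AT5G42580, 17023502 to 17025361, minus strand) encodes a further P450. The cyclase genes have the most exons, 14 in the longest transcript of *THAS1* and 14 in *MRN1*, while AT5G47980 has 1. No member overlaps another annotated gene. Of the 100-base windows lying within a single exon of the members, 0 had a second exact copy in the genome, and windows across exon junctions were not examined.

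The 250 bases before the annotated start of 4 members are shown because these are the members that passed the unadjusted threshold between the genotypes. Capitals mark TATAAA, the core of the TATA box, and CGTGCG, one form of the element bound by the brassinosteroid-regulated factors BZR1 and BES1, on either strand, so that a match on the other strand reads TTTATA or CGCACG. Sequences are from the TAIR10.1 genome, 5′ to 3′ on the strand of the gene.
THAS1 (chr5:19456587-19456836, plus strand): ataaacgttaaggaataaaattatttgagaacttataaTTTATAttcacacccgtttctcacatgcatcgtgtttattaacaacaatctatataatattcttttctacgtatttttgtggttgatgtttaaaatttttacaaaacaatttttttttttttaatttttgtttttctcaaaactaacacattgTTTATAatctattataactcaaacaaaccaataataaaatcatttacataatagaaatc
THAH (chr5:19447867-19448116, minus strand): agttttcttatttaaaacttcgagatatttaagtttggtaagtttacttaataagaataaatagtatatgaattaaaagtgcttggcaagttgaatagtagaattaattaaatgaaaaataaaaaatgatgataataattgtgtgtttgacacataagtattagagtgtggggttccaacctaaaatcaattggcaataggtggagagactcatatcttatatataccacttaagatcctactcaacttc
AT5G47980 (chr5:19428638-19428887, plus strand): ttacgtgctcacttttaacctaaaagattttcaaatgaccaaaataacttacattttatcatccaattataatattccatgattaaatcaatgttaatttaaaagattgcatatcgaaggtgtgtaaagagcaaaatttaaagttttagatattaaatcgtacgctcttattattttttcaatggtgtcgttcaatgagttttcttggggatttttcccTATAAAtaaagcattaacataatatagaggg
MRO (chr5:17033801-17034050, minus strand): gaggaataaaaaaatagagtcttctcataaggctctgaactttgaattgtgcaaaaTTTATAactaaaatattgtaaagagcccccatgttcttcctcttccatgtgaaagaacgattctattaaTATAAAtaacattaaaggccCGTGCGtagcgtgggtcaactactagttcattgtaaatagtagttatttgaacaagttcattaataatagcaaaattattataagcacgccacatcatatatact

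TATAAA was found in 5 of 7 upstream windows, with none in those of *THAH* and *CYP705A12*, and in 47.3% of the windows of 27443 protein-coding genes. In AT5G47980 it lay 26 to 31 bases before the annotated start. CGTGCG was found only before *MRO* among the 7 members, 100 to 105 bases from the start, and in 1.57% of all windows. The other form of that element, CGTGTG, the G-box CACGTG and the epidermal L1-box form TAAATGCA were in 0 of 7 windows, against 5.37%, 6.49% and 1.57% of all windows. All searches covered both strands, CACGTG can overlap with CGTGTG or CGTGCG, and the printed matches do not overlap each other. A match is a description of these letters and not of binding.

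The levels are FPKM, fragment counts that the authors scaled for transcript length and for the mapped fragments of the library, so they can be compared between genes. *THAD* was the highest member, at 86.9 to 104 FPKM over the 6 libraries, a mean above that of 91.0% of the 17107 genes that averaged 1 FPKM or more. *MRO* followed at 56.6 to 85.0 FPKM, *THAS1* at 48.7 to 63.9 and *THAH* at 42.5 to 58.5. The ranges of these 3 genes overlapped, and none of them reached that of *THAD*. AT5G47980 was at 19.1 to 26.3 FPKM, below all of these. *CYP705A12* at 7.28 to 12.2 FPKM and *MRN1* at 6.01 to 12.1 were lowest and overlapped each other, with means above those of 44.8% and 43.7% of the tested genes. In the thalianol cluster *THAH* was at 0.872 to 1.08 times and *THAD* at 1.54 to 2.04 times the level of *THAS1* in the same library. In the marneral cluster *MRO* was at 5.15 to 11.7 times the level of the cyclase gene *MRN1*.

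The label of the mutant was checked first on *BRON* (AT1G75710), and values of 3 libraries are given in the order of replicates 1, 2 and 3. *BRON* measured 17.9, 16.1 and 17.3 in the wild type against 1.25, 0.925 and 1.10 in *bron-2* (FPKM), or 6.38% of the wild type. Depth cannot be read from FPKM, but the steps between low values give relative depths of 0.969 to 1.10 in the wild type and 1.19 to 1.25 in *bron-2*, with wild type replicate 1 set to 1. All 7 members were above the filter of a mean of 1 FPKM. Genotypes were compared with limma on log2(FPKM + 1), so a negative log2 fold change is a lower level in *bron-2*. No member passed an adjusted limma p-value of 0.05 (Benjamini-Hochberg), a threshold that 0.0818% of the tested genes passed. At the unadjusted limma p-value of 0.05, the threshold of the study, 4 of 7 members passed, where 9.79% of all tested genes did. Of these, 3 were lower in *bron-2*, all in the thalianol cluster, and 1, *MRO*, was higher, where 5.76% and 4.03% of the tested genes passed in these directions. The same 4 members were those whose groups did not overlap, 3 lower and 1 higher, beside 8.67% and 7.06% of the tested genes. The members were chosen with earlier results of these data known, so these shares are a description only. An exact permutation test of 3 libraries against 3 cannot go below p = 0.1, which is the value of these 4 members. The number of members at the unadjusted threshold was 0 without wild type replicate 2, 1 without *bron-2* replicate 2 or 3, and 2 without wild type replicate 3 or *bron-2* replicate 1, so single libraries decide it.

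**Figure D1:**
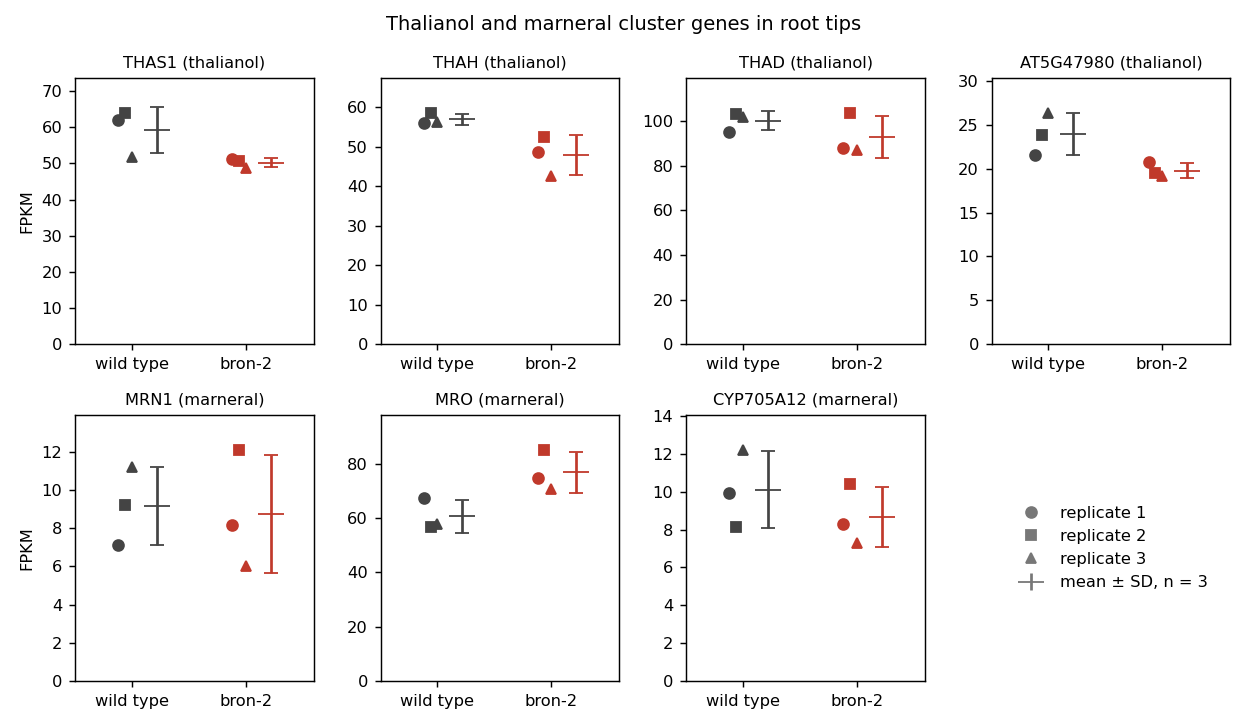
FPKM of the 7 cluster genes in each library (circle, square and triangle for replicates 1, 2 and 3; wild type dark grey, *bron-2* red), with the mean and SD of 3 libraries beside the points and each axis starting at 0. The wild-type and *bron-2* points are apart for THAS1, THAH, AT5G47980 and MRO and overlap for THAD, MRN1 and CYP705A12.

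*THAS1* measured 61.9, 63.9 and 51.9 in the wild type against 51.2, 50.7 and 48.7 in *bron-2* (FPKM). The *bron-2* libraries were all below the wild type, but wild type replicate 3 was within 1 FPKM of the highest of them. The means were 59.2 ± 6.46 and 50.2 ± 1.31 FPKM (SD, n = 3 each), and the log2 fold change was -0.23 (95% interval -0.45 to -0.01). The unadjusted limma p-value of *THAS1* was 0.0460 and the adjusted one 0.499. The unadjusted p-value of *THAS1* rose above 0.05 after median scaling, after quantile normalization, without the variance trend, and on leaving out any library except wild type replicate 3.

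The 3 wild-type libraries lay close together for *THAH*, with 56.0, 58.5 and 56.2 FPKM. The *bron-2* libraries, with 48.6, 52.5 and 42.5 FPKM, were all below them. The log2 fold change was -0.25 (95% interval -0.47 to -0.03), with an unadjusted limma p-value of 0.0300 and an adjusted one of 0.452. *THAH* passed the unadjusted threshold without wild type replicate 1 or *bron-2* replicate 2 but not without any of the other 4 libraries.

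AT5G47980, the acyltransferase gene, measured 21.6, 23.9 and 26.3 in the wild type against 20.7, 19.5 and 19.1 in *bron-2* (FPKM). The groups did not overlap, with the highest *bron-2* library just under the lowest wild-type one. The log2 fold change was -0.26 (95% interval -0.48 to -0.03), with an unadjusted limma p-value of 0.0297 and an adjusted one of 0.452. AT5G47980 passed the unadjusted threshold only without replicate 1 of either genotype among the 6 fits that left out a library.

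*THAD*, the desaturase gene, measured 95.3, 103 and 102 in the wild type against 88.1, 104 and 86.9 in *bron-2* (FPKM). Here *bron-2* replicate 2 was just above the highest wild-type library and the others were lower than all 3 wild-type libraries. The log2 fold change was -0.11 (95% interval -0.32 to 0.10, adjusted limma p-value 0.731). The 4 thalianol members thus had a median log2 fold change of -0.24, beside -0.000995 over all tested genes, and their summed level was 235 to 249 FPKM in the wild type and 197 to 226 FPKM in *bron-2*. In these bulk samples, fewer cells that express the cluster and less RNA per such cell cannot be told apart.

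*MRO* had the only higher value among the members. It measured 67.5, 56.6 and 57.6 in the wild type against 74.8, 85.0 and 70.5 in *bron-2* (FPKM). All *bron-2* libraries lay above the wild type, and the means were 60.6 ± 6.0 and 76.8 ± 7.49 FPKM (SD, n = 3 each), so *bron-2* reached 127% of the wild-type level. The log2 fold change was 0.34 (95% interval 0.09 to 0.58), with an unadjusted limma p-value of 0.0128 and an adjusted one of 0.376. The unadjusted p-value of *MRO* was 0.0517 without wild type replicate 2 and 0.0566 without *bron-2* replicate 2.

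The other marneral genes overlapped between the genotypes. *MRN1*, the cyclase gene, measured 7.12, 9.24 and 11.2 in the wild type against 8.20, 12.1 and 6.01 in *bron-2* (FPKM), so the lowest and the highest of all 6 values were both in *bron-2*. The gene had a log2 fold change of -0.09 with a 95% interval of -0.65 to 0.47, too wide to tell a fall from a rise. *CYP705A12* measured 9.96, 8.15 and 12.2 in the wild type against 8.29, 10.4 and 7.28 in *bron-2* (FPKM), which gave a log2 fold change of -0.20 (95% interval -0.59 to 0.20, adjusted limma p-value 0.743). The groups of *MRN1* and *CYP705A12* each spread widely, with a coefficient of variation of 18.6% to 35.3% within a genotype, against 2.41% to 10.9% for the other 5 members. The summed level of the marneral members was 74.0 to 84.5 FPKM in the wild type and 83.8 to 108 FPKM in *bron-2*, with most of it from *MRO*.

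Ratios within a library do not depend on how the libraries were scaled to each other, and are given as a description. *MRO* reached 1.09, 0.886 and 1.11 times the level of *THAS1* in the wild-type libraries against 1.46, 1.68 and 1.45 times in *bron-2*. That these do not overlap follows from the levels of both genes, which lay apart in opposite directions. Within the marneral cluster, *MRO* relative to *MRN1* overlapped between the genotypes, at 5.15 to 9.47 in the wild type and 7.02 to 11.7 in *bron-2*. *THAH* relative to *THAS1* was at 0.968 ± 0.10 in the wild type and 0.952 ± 0.0823 in *bron-2* (SD, n = 3 each), and *THAD* relative to *THAS1* at 1.71 ± 0.229 and 1.85 ± 0.172. Both of these overlapped between the genotypes.

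**Figure D2:**
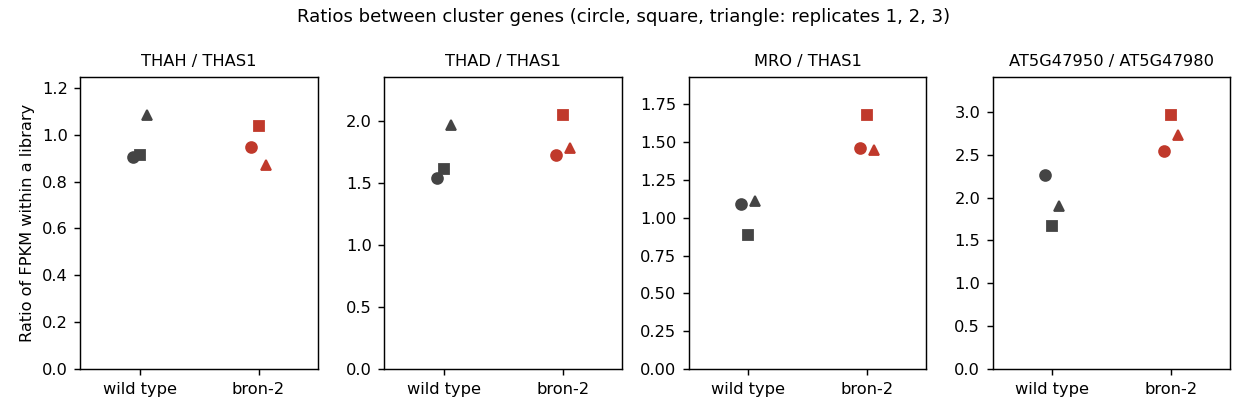
Ratio of the FPKM of gene pairs in each library (circle, square and triangle for replicates 1, 2 and 3; wild type dark grey, *bron-2* red; axes start at 0). THAH and THAD relative to THAS1 overlap between the genotypes, while MRO relative to THAS1 is 0.886 to 1.11 in the wild type and 1.45 to 1.68 in *bron-2*, and AT5G47950 relative to AT5G47980 is 1.67 to 2.26 and 2.55 to 2.96.

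The order of the libraries was also read across both clusters. All 7 members had their lowest *bron-2* value in replicate 3, and 5 of 7 had their highest in replicate 2. In the wild type no library was lowest for more than 4 members. Over the 6 libraries, the Pearson correlation of log2(FPKM + 1) was 0.40 to 0.83 in the 6 pairs of thalianol members, with a median of 0.64, and -0.11 to 0.71 in the 3 pairs of marneral members. The pairs share their libraries and the difference between the genotypes, and after each genotype mean was removed the thalianol pairs ranged from -0.63 to 0.79. *MRN1* and *CYP705A12* correlated at 0.71 before and 0.73 after this step. Across the clusters, *THAD* and *MRN1* had the largest correlation, 0.83, and AT5G47980 and *MRO* the lowest, -0.86. These are descriptions of 6 libraries.

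Genes with the most similar pattern were sought by the Pearson correlation, over the 6 libraries, with the mean log2(FPKM + 1) of a cluster's members. For the thalianol cluster these were *RWA2*, known for the acetylation of cell wall polysaccharides (r = 0.992), AT2G43120 (0.990) and AT1G64190 (0.988). *RWA2* measured 21.3, 22.3 and 21.0 in the wild type against 17.1, 18.3 and 15.3 in *bron-2* (FPKM), which gave a log2 fold change of -0.33. It was picked for its likeness to a profile that was itself lower in *bron-2*, so no p-value is drawn from it. For the marneral cluster they were *IAA11*, an Aux/IAA repressor of auxin response (0.989), AT1G78010 (0.987) and AT4G01910 (0.973). *MRO* itself correlated with *MRN1* at 0.02 and with *CYP705A12* at -0.11, so likeness to the marneral mean need not hold for *MRO*. After each genotype mean was removed, these 2 correlations of *MRO* were 0.26 and 0.51. *IAA11* was highest in *bron-2* replicate 2, at 9.13 FPKM, and lowest in *bron-2* replicate 3, at 5.28 FPKM. Of the 17100 other tested genes, 54 and 25 had a correlation above 0.95 with the thalianol and the marneral profile. With 6 libraries, high correlations arise among many genes.

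The genes around the clusters were read to place the members beside their neighbours. Up to 5 annotated genes on either side of each cluster gave 19 genes in the table, of which 12 were tested and 5 were listed at 0 in all libraries. Their log2 fold changes were -0.30 to 0.23 with a median of 0.05, and 5 were lower and 7 higher in *bron-2*. *RABA4C*, which encodes a RAB GTPase and overlaps AT5G47970 on the other strand, was the only one past the unadjusted threshold (log2 fold change -0.30, unadjusted limma p-value 0.0313). That threshold was passed by 9.79% of all tested genes. Groups did not overlap for 2 higher flanking genes, AT5G47950 among them, and 1 lower, beside 7.06% and 8.67% of the tested genes. *RABA4C* measured 17.5, 18.1 and 14.1 in the wild type against 14.1, 12.7 and 12.8 in *bron-2* (FPKM), and the groups overlapped. *RABA4C* lost this call without wild type replicate 1 or 2 or *bron-2* replicate 2 or 3, with unadjusted limma p-values of 0.0784 to 0.114. Reads of *RABA4C* and AT5G47970 may not be told apart.

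AT5G47950 lies beyond *RABA4C* and AT5G47970, encodes another BAHD acyltransferase and is known as part of the extended thalianol cluster. It measured 48.7, 39.8 and 50.0 in the wild type against 52.8, 57.7 and 52.2 in *bron-2* (FPKM), all above the wild type, where 7.06% of the tested genes had such groups. The log2 fold change was 0.23 (95% interval -0.01 to 0.48, unadjusted limma p-value 0.0591), opposite in sign to those of the 4 thalianol members, and the difference between them was not tested. The unadjusted p-value of AT5G47950 was 0.0491 after median scaling and 0.0486 after quantile normalization, and it was also under 0.05 without wild type replicate 1 (0.0495) or 3 (0.0355). Without wild type replicate 2 the log2 fold change of AT5G47950 was 0.13. AT5G47950 relative to AT5G47980, both acyltransferase genes, was at 2.26, 1.67 and 1.90 in the wild type and at 2.55, 2.96 and 2.73 in *bron-2*, ratios that again had to lie apart because the levels did so in opposite directions.

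**Figure D3:**
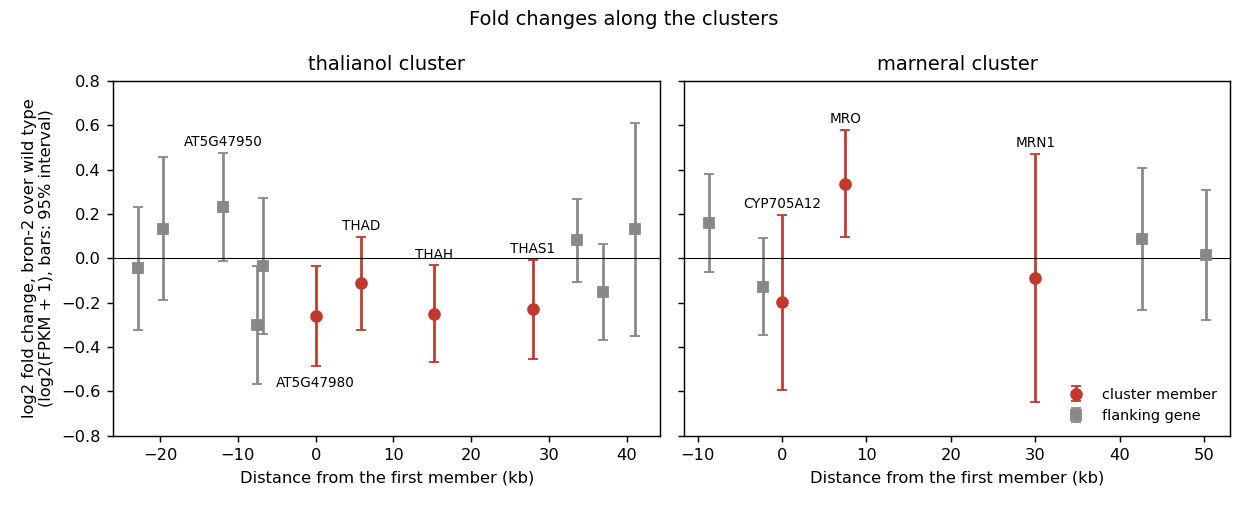
Log2 fold change (*bron-2* over wild type, on log2(FPKM + 1), limma) of cluster members (red circles) and flanking tested genes (grey squares), with 95% intervals, against the distance in kb of each gene's left end from that of the leftmost member. The intervals of AT5G47980, THAH and THAS1 lie below 0, that of THAD reaches 0.10, and MRO lies above 0 while MRN1 and CYP705A12 on either side of it do not.

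The enzymes that share the precursor were counted next. *Arabidopsis* has 13 listed oxidosqualene cyclases. Of the 11 outside these clusters, 4 averaged 1 FPKM or more, none passed the unadjusted limma threshold, and their log2 fold changes were -0.36 to -0.01. *CAS1* (AT2G07050), the cycloartenol synthase that leads to sterols, measured 65.3, 57.7 and 59.3 in the wild type against 62.3, 59.6 and 59.0 in *bron-2* (FPKM), which gave a log2 fold change of -0.01 (95% interval -0.19 to 0.17). The ranges of *CAS1* and *THAS1* over the 6 libraries overlapped. The arabidiol synthase *PEN1* (AT4G15340) was at 3.17 to 5.10 FPKM, and 2 cyclases were listed at 0 throughout.

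Among 5 genes of extended or other triterpene clusters, 4 were tested and 1 was past the unadjusted threshold, where 9.79% of all tested genes were. This was the P450 gene *CYP716A2* (AT5G36140), with 7.66, 11.3 and 6.56 in the wild type against 4.13, 5.38 and 6.61 in *bron-2* (FPKM). The gene had a log2 fold change of -0.57 (unadjusted limma p-value 0.0297, adjusted 0.452), and *bron-2* replicate 3 overlapped the wild type. Without wild type replicate 2 the log2 fold change of *CYP716A2* was -0.36 (unadjusted limma p-value 0.1), and the call was also lost without *bron-2* replicate 1 (0.102) or 2 (0.0636).

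Of 21 genes of the mevalonate pathway and of squalene and oxidosqualene synthesis, 18 were tested, 7 were lower and 11 higher in *bron-2*, with a median log2 fold change of 0.04. The only one past the unadjusted threshold, where 9.79% of all tested genes were, was *SQP2* (AT5G24140), a gene of the squalene epoxidase family. It measured 16.1, 15.7 and 15.7 in the wild type against 13.3, 14.3 and 12.7 in *bron-2* (FPKM). The gene had a log2 fold change of -0.22 (unadjusted limma p-value 0.0342, adjusted 0.468). *SQP2* kept this call only without *bron-2* replicate 2, and leaving out any of the other 5 libraries gave unadjusted limma p-values of 0.0604 to 0.0884. The rate-limiting reductase gene *HMG1* (AT1G76490) was at 240 to 276 FPKM with overlapping genotypes.

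Of 15 genes of the sterol branch, 1 was past the unadjusted threshold, where 9.79% of all tested genes were. This was the sterol methyl oxidase gene *SMO1-2* (AT4G22756). It measured 16.6, 18.2 and 23.2 in the wild type against 21.98, 26.3 and 28.7 in *bron-2* (FPKM), with overlapping groups and a log2 fold change of 0.40 (unadjusted limma p-value 0.0279, adjusted 0.446). The call of *SMO1-2* was lost without wild type replicate 1 (0.0841) or 2 (0.0827) and without *bron-2* replicate 2 (0.0779) or 3 (0.0967). *DWF1* (AT3G19820) was listed at 0 in wild type replicate 1 and at 329 to 357 FPKM in the other libraries. It was the only gene listed at 0 in one library and at 100 FPKM or more in another, so no fold change is drawn from it. The other 14 sterol genes had a median log2 fold change of 0.05.

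**Figure D4:**
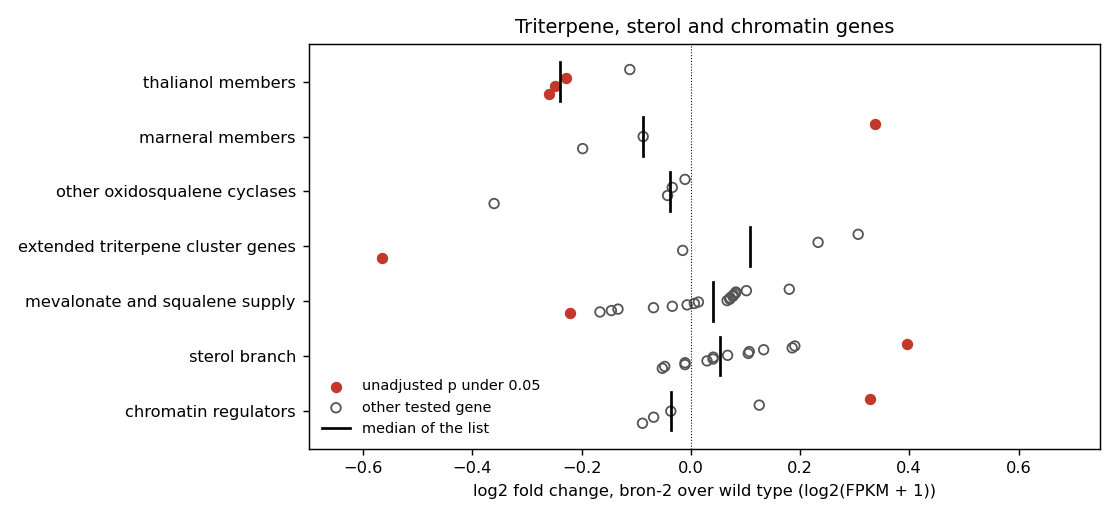
Log2 fold change (*bron-2* over wild type, on log2(FPKM + 1)) of every tested gene of each list, without DWF1. Filled red points have an unadjusted limma p-value under 0.05, and vertical bars mark the medians, which are -0.24 for the thalianol members, -0.09 for the marneral members and 0.04 for the mevalonate and squalene genes.

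Chromatin regulators were listed because plant metabolic clusters are known to carry H3K27me3 and the histone variant H2A.Z. The Polycomb methyltransferase genes *CLF* and *SWN*, the remodeller *PKL* and the reader *LHP1* were all tested, with log2 fold changes of -0.09 to 0.13, and none passed the unadjusted threshold. *ARP6* (AT3G33520), a subunit of the SWR1 complex that deposits H2A.Z, measured 7.73, 8.33 and 6.55 in the wild type against 9.20, 9.83 and 10.001 in *bron-2* (FPKM), all above the wild type. Its log2 fold change was 0.33 (unadjusted limma p-value 0.0185, adjusted 0.405). Thus 1 of the 5 listed regulators passed the unadjusted threshold, where 9.79% of all tested genes did. The call of *ARP6* was lost without wild type replicate 3 (0.0604), *bron-2* replicate 2 (0.0556) or *bron-2* replicate 3 (0.053).

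The tissue was checked on markers of root cell types. Of 12 root markers, 10 averaged 1 FPKM or more, and 2 of these were past the unadjusted limma threshold, both lower in *bron-2*. In that direction 5.76% of all tested genes passed. The epidermal regulator *WER* (AT5G14750) measured 16.7, 14.7 and 16.5 in the wild type against 8.73, 13.2 and 11.4 in *bron-2* (FPKM) (log2 fold change -0.50, unadjusted limma p-value 0.00902), and the stem cell niche gene *PLT2*, at 0.672 to 1.63 FPKM, had a log2 fold change of -0.40 (unadjusted limma p-value 0.0336). *WER* kept its call without any single library, while *PLT2* lost it without wild type replicate 1 (0.112) or any one *bron-2* library (0.0541 to 0.0753). The other epidermal marker, *GL2*, had a log2 fold change of -0.09, and the 2 epidermal markers summed to 34.8 to 40.7 FPKM in the wild type and 29.2 to 35.8 FPKM in *bron-2*. The 3 root hair markers summed to 573 to 629 and 538 to 682 FPKM. The stem cell niche markers *PLT2*, *PLT1* and *WOX5* summed to 2.48 to 2.71 FPKM in the wild type and 1.31 to 1.84 FPKM in *bron-2*, which did not overlap. Among single tested genes, 8.67% lay apart in this direction. *PLT1* and *WOX5* averaged below 1 FPKM and were not tested. The quiescent centre gene *WOX5* measured 0.300, 0.460 and 0.522 in the wild type against 0, 0.367 and 0.114 in *bron-2* (FPKM), with overlapping groups. The ground tissue markers *SCR* and *SHR* had log2 fold changes of 0.06 and 0.09, and the root cap marker *SMB* one of -0.20, none past the unadjusted limma threshold. The endodermal *CASP1* was at 704 to 1191 FPKM in the wild type and 1011 to 1378 FPKM in *bron-2*, with a log2 fold change of 0.32 (unadjusted limma p-value 0.145). The 3 leaf photosynthesis markers summed to 2.54 to 5.51 FPKM in the wild type and 1.59 to 3.41 FPKM in *bron-2*. Of these, only *RBCS1A* was tested (log2 fold change -0.64, unadjusted limma p-value 0.0324), and it lost the call without any one of wild type replicates 2 and 3 and *bron-2* replicates 1 and 2 (0.0674 to 0.109). *WER* and the summed niche markers were lower in *bron-2*, as were *THAS1*, *THAH* and AT5G47980. The lowest *bron-2* library was replicate 1 for *WER* and the niche sum and replicate 3 for the 3 thalianol genes, given as a description only. The part of these cell types in the lower levels of the thalianol genes was not tested.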

How the data were processed

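The authors prepared NEBNext Ultra II libraries from total RNA, sequenced single-end reads and mapped them to TAIR10 with Cufflinks, as the labels and methods state. The annotation, the version of Cufflinks and how multi-mapped reads were handled are not given in the sources used here. The deposited values are FPKM, scaled by the authors for transcript length and mapped fragments, with 1 column for each of 6 libraries. Columns were assigned to replicates by the number in their names, and no 2 were identical. The wild-type columns are named for Columbia. The other columns bear a code that no label spells out, and they were taken as *bron-2*. Each library pools root tips from several plates, and the methods call the replicates biological.

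The 17107 genes that averaged 1 FPKM or more were compared with limma 3.58.1 in R 4.3.3 (lmFit, eBayes with trend, two-sided, Benjamini-Hochberg adjustment over all tested genes) on log2(FPKM + 1), a scale that understates changes of low genes. The study called genes with PoissonSeq, which needs counts, at an unadjusted p-value of 0.05, and that threshold is given beside the adjusted one. Exact permutation tests and summaries used Python 3.11.15 with scipy 1.17.1. FPKM does not give read numbers, so errors come from the spread among the 3 libraries of each genotype. In limma this spread is pooled over both genotypes and moderated by a trend over all tested genes.

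The members and lists were chosen with earlier results of these data known. Named genes are the members, *BRON*, AT5G47950, flanking and list genes with an unadjusted p-value under 0.05, otherwise the gene of highest level in a list (*CAS1* among the cyclases), and the 3 genes most correlated with each cluster's mean. The ratios within a library and the values of *PEN1*, *HMG1*, *DWF1*, *CLF*, *SWN*, *PKL*, *LHP1*, *GL2*, *WOX5*, *PLT1* and *CASP1* were added after their values were seen. Those of *SCR*, *SHR* and *SMB* were also added after they were seen. Coordinates and upstream sequences are from the TAIR10.1 annotation and genome. Alternatives changed the pseudocount to 0.1, dropped the filter or raised it to 5 FPKM, applied median or quantile scaling, removed the trend, added a replicate block or left out single libraries.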

Additional observations from a re-analysis of the deposited data

How the results depend on the processing

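Over 91 combinations of a member and an alternative, the sign of the log2 fold change changed in 2. These were *MRN1* without wild type replicate 3 (0.05) and without *bron-2* replicate 3 (0.13). No member passed an adjusted limma p-value of 0.05 under any alternative run, with a smallest value of 0.199 (*THAS1*). On leaving out single libraries, the log2 fold change was -0.32 to -0.17 for *THAS1*, -0.32 to -0.17 for *THAH*, -0.19 to -0.07 for *THAD*, -0.33 to -0.19 for AT5G47980, -0.32 to 0.13 for *MRN1*, 0.26 to 0.42 for *MRO* and -0.33 to -0.06 for *CYP705A12*. The medians were -0.25 to -0.19 for the thalianol and -0.32 to 0.13 for the marneral members. The unadjusted call of *THAS1* was lost after median scaling (-0.22), quantile normalization (-0.22) and without the trend (-0.23). The main fit of *THAS1* gave -0.23 with a standard error of 0.096. Under these alternatives, in that order, the standard error was 0.1, 0.098 and 0.106. *MRO* lost it without wild type replicate 2 (limma p-value 0.0517) or *bron-2* replicate 2 (0.0566). *THAH* lost it without wild type replicate 2 or 3 or *bron-2* replicate 1 or 3, and AT5G47980 without replicate 2 or 3 of either genotype.

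The number of members at the unadjusted threshold was 3 or 4 under the other alternatives and 0 to 3 with a library left out. Over all genes, that number was 1053 to 2289 with a library left out, and the number at an adjusted p-value under 0.05 was 8 to 31. With a mean of at least 5 FPKM, 7 genes passed the adjusted threshold, beside 14. In a fit with a replicate block, 2253 and 16 genes passed the unadjusted and adjusted thresholds, and the calls of the 7 members did not change, with 4 at the unadjusted threshold. Deviations from the genotype means correlated at 0.123, -0.0133 and 0.186 between libraries of replicate numbers 1, 2 and 3. Between libraries of unlike numbers they correlated at -0.219 to 0.118, lowest for wild type replicate 3 with *bron-2* replicate 1. The main fit used no block because the methods of the study name none. Whether the numbers pair the libraries was not tested. Of the calls at the unadjusted threshold, 58.8% were lower in *bron-2*, and 52.9% after quantile normalization.

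Small fold changes are limited here by the 3 libraries of a genotype. For *MRN1* and *CYP705A12*, which were at about 6 to 12 FPKM, the 95% intervals cover changes in both directions.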
